A study of Mus musculus with 12 samples.

Results

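The genes described are 10 upstream regulators of the Hippo pathway: the angiomotins Amot, Amotl1 and Amotl2, the membrane scaffolds Frmd6, Nf2, Wwc1 and Wwc2, the giant cadherins Fat4 and Dchs1, and the LIM protein Limd1. They were taken by symbol from a table of 28004 genes, and all 10 were found. The table held 12 bulk RNA libraries of cells sorted from dissociated whole mouse lung, 3 libraries for each of 4 ages, the embryonic stage E17.5 and, after birth, P3, P7 and P10. All 4 groups carried the same 2 reporters, Acta2-dsRed and Pdgfra-GFP, and only cells positive for both were kept, so the libraries differ by age and there is no unlabelled, untreated or mutant group. The sort takes cells in which the smooth muscle actin gene and the platelet-derived growth factor receptor alpha gene drive their reporters, which includes the myofibroblasts of the forming alveolar wall. The labels give no strain, and they leave unsaid whether each library is a separate animal or a pool, and p-values therefore rest on the spread between samples alone, part or all of which may be technical. The series title names Hippo pathway activity in the differentiation of lung mesenchyme as the question.

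In the Hippo pathway a chain of kinases, MST1 and MST2 followed by LATS1 and LATS2, phosphorylates the coactivators YAP and TAZ and holds them out of the nucleus. The proteins described here work before that chain or beside it. Merlin (Nf2), the KIBRA proteins (Wwc1 and Wwc2) and willin (Frmd6), the mammalian relative of Drosophila Expanded, gather the kinases at the cell membrane. Angiomotins bind YAP and TAZ directly as well as F-actin and junction proteins, LIMD1 of the Ajuba family binds LATS and restrains it, and FAT4 and DCHS1 are a receptor and its ligand on neighbouring cells. Amotl2 is itself a known transcriptional target of YAP and TAZ.

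The 12 libraries held from 13328623 to 18740591 estimated counts. Levels are given as CPM, counts scaled to a common library size with edgeR's trimmed-mean factors. In genes with 1 annotated transcript the most frequent low value was 11 at transcript lengths of 301 to 310 nt, 3 at 601 to 610 nt and 1 at 1001 to 1010 nt, so a value behaves like an abundance per length. Levels of different genes are compared on that per-length reading. The 8 myofibroblast markers, with Acta2 and Pdgfra among them, summed to between 2608 and 4555 CPM at E17.5, between 4693 and 5198 CPM at P3, between 3891 and 4732 CPM at P7 and between 2557 and 4096 CPM at P10. Its members moved both ways in P3 vs E17.5, where Acta2, Tagln and Actg2 rose (log2 fold changes 1.06, 1.28 and 2.08), Hhip and Pdgfra fell (-2.57 and -0.95) and the other 3 did not pass. The reporters' own genes were abundant, with stage means of at least 486 CPM for Acta2 and 178 CPM for Pdgfra. Markers of other lung cells summed to less at every stage. Endothelial markers summed to between 47.6 and 136 CPM over the 12 libraries and epithelial markers to between 63.7 and 303 CPM, of which Sftpc, a surfactant gene, was the largest part in the mean of every stage. The E17.5 libraries were not uniform. Replicate 1 of E17.5 had a myofibroblast sum of 2608 CPM against 4093 and 4555 CPM in replicates 2 and 3. Replicate 2 of E17.5 had a pericyte sum of 292 CPM against 187 and 184 CPM in replicates 1 and 3. P10 replicate 1 stood apart from the other P10 libraries, with an endothelial sum of 47.6 CPM against 136 and 131 CPM, and an epithelial sum of 63.7 CPM against 286 and 259 CPM. Its myofibroblast sum was 4096 CPM against 2596 and 2557 CPM, and its cell cycle genes summed to 146 CPM against 77.2 and 91.0 CPM. Without P10 replicate 1, 4, 0 and 1 of the 10 genes described here passed in P10 vs E17.5, in P10 vs P7 and in P10 vs P3, the same counts as with it. Over all tested genes the counts did change, to 2802, 794 and 3096 without that library, against 3077, 613 and 2912 with it.

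**Figure D1:**
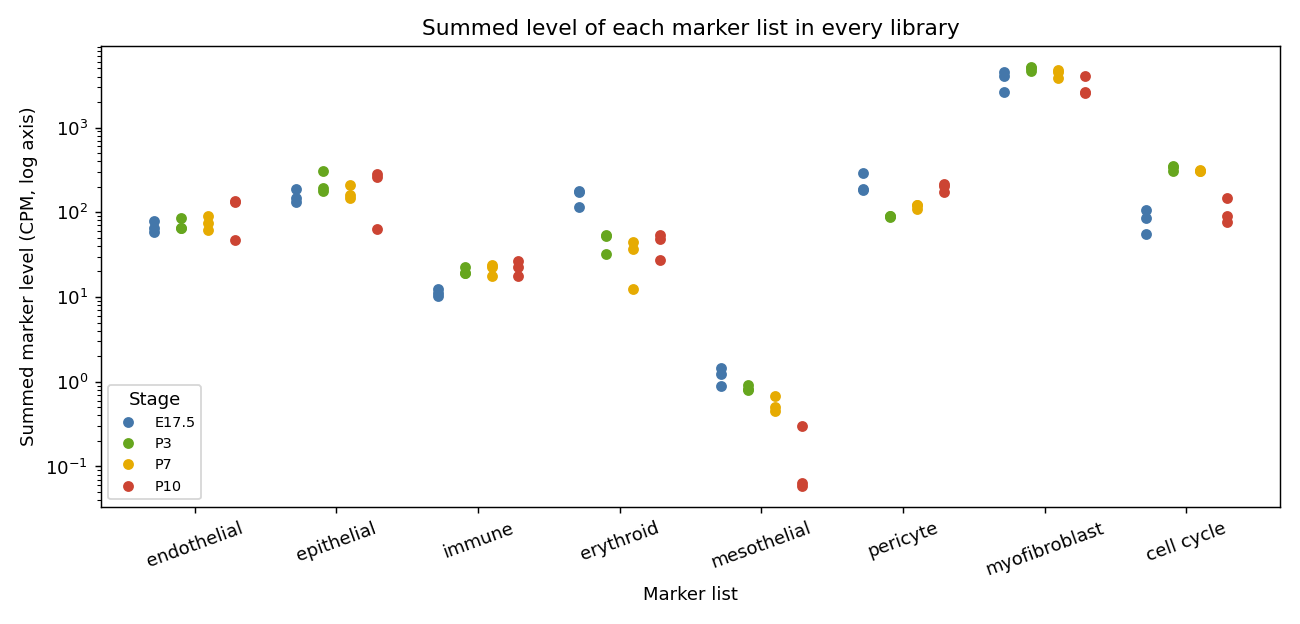
Summed level of each marker list (CPM, log axis) in every library, coloured by stage; each point is 1 library. Myofibroblast markers are at or above 2557 CPM in every library. Pericyte, erythroid, immune, myofibroblast and cell cycle sums at P3 do not overlap those at E17.5.

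Across birth the 10 genes split. Amotl1, Amotl2 and Frmd6 rose at P3 relative to E17.5, Fat4 and Limd1 fell, and Amot, Nf2, Dchs1, Wwc1 and Wwc2 did not pass. After P3 no gene of the 10 passed between consecutive stages. By P10 relative to E17.5, Amotl1 and Frmd6 stood higher and Fat4 and Limd1 lower, while Amotl2 did not pass. All 10 genes passed the filter on low values, and each adjusted p is from edgeR's quasi-likelihood test over 16827 genes, with 0.05 as the threshold.

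In P3 vs E17.5, 5 of 10 genes passed, 3 higher and 2 lower, where 25.1% of all tested genes passed, 13.1% higher and 12.03% lower. Their median log2 fold change was 0.02, against -0.05 over all tested genes. In P7 vs E17.5, 6 of 10 passed, 3 higher and 3 lower, against 25.4% of all tested genes, 12.9% higher and 12.5% lower. In P10 vs E17.5, 4 of 10 passed, 2 higher and 2 lower, against 18.3%, 8.79% higher and 9.50% lower. These 3 comparisons share the E17.5 libraries. In P10 vs P3 only Amotl1 passed, 1 of 10 against 17.3% of all genes (7.90% higher and 9.40% lower). In P7 vs P3, 0 of 10 passed with edgeR, where 0.00594% of all genes passed. There 2 of 10 had an unadjusted p under 0.05, as had 2399 of all 16827 genes. DESeq2 called 1 of 10 and 730 of all genes, and limma-voom 0 of 10 and 18 of all genes. In P10 vs P7, 0 of 10 passed with edgeR, against 3.64% of all genes, 1.40% higher and 2.25% lower. There 1 of 10 had an unadjusted p under 0.05, as had 3406 of all 16827 genes. DESeq2 called 0 of 10 and 1841 of all genes, and limma-voom 0 of 10 and 854 of all genes. Over all 4 stages together 4 of 10 differed (Amotl1, Frmd6, Fat4 and Limd1), against 32.1% of all genes. The 3 libraries of P3 and the 3 of E17.5 did not overlap for 6 of the 10 genes, against 38.9% of all tested genes. That number was 7 of 10 in P7 vs E17.5 against 42.9%, 5 of 10 in P10 vs E17.5 against 33.9%, 4 of 10 in P10 vs P3 against 37.3%, and 3 of 10 in both P7 vs P3 and P10 vs P7 against 25.9% and 30.1%.

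**Figure D2:**
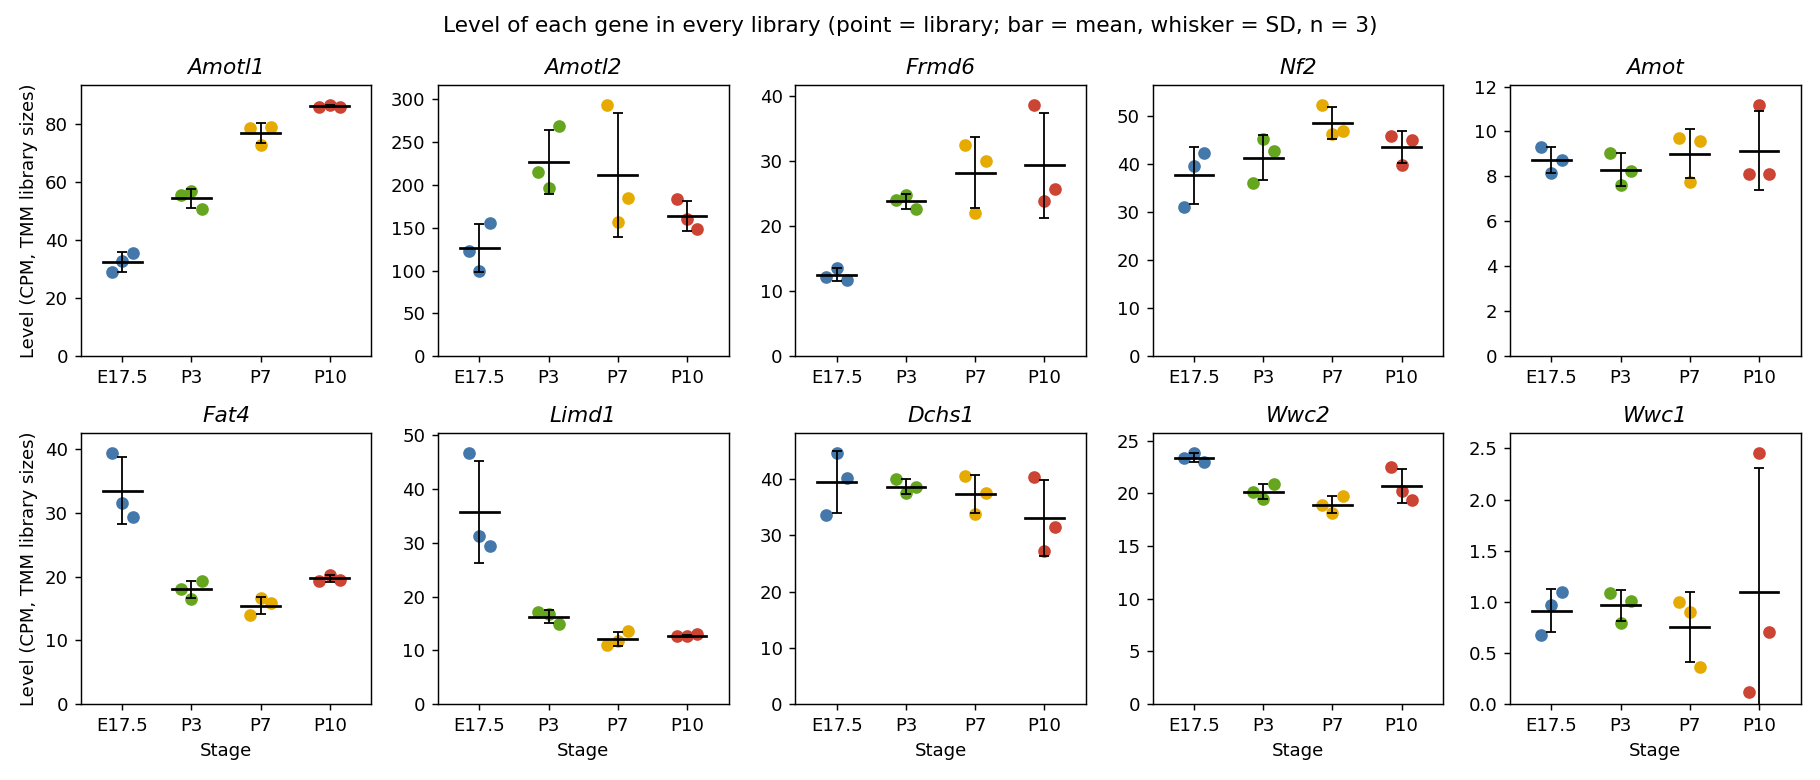
Level of each gene (CPM) at the 4 stages; points are libraries, horizontal bars means and whiskers SD (n = 3 per stage; the whisker of Wwc1 at P10 runs below 0 and is clipped). The mean of Amotl1 is higher at each later stage, up to 86.3 CPM at P10, though P7 vs P3 and P10 vs P7 did not pass. Fat4 and Limd1 are highest at E17.5, and Amotl2 has its widest spread at P7.

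**Figure D3:**
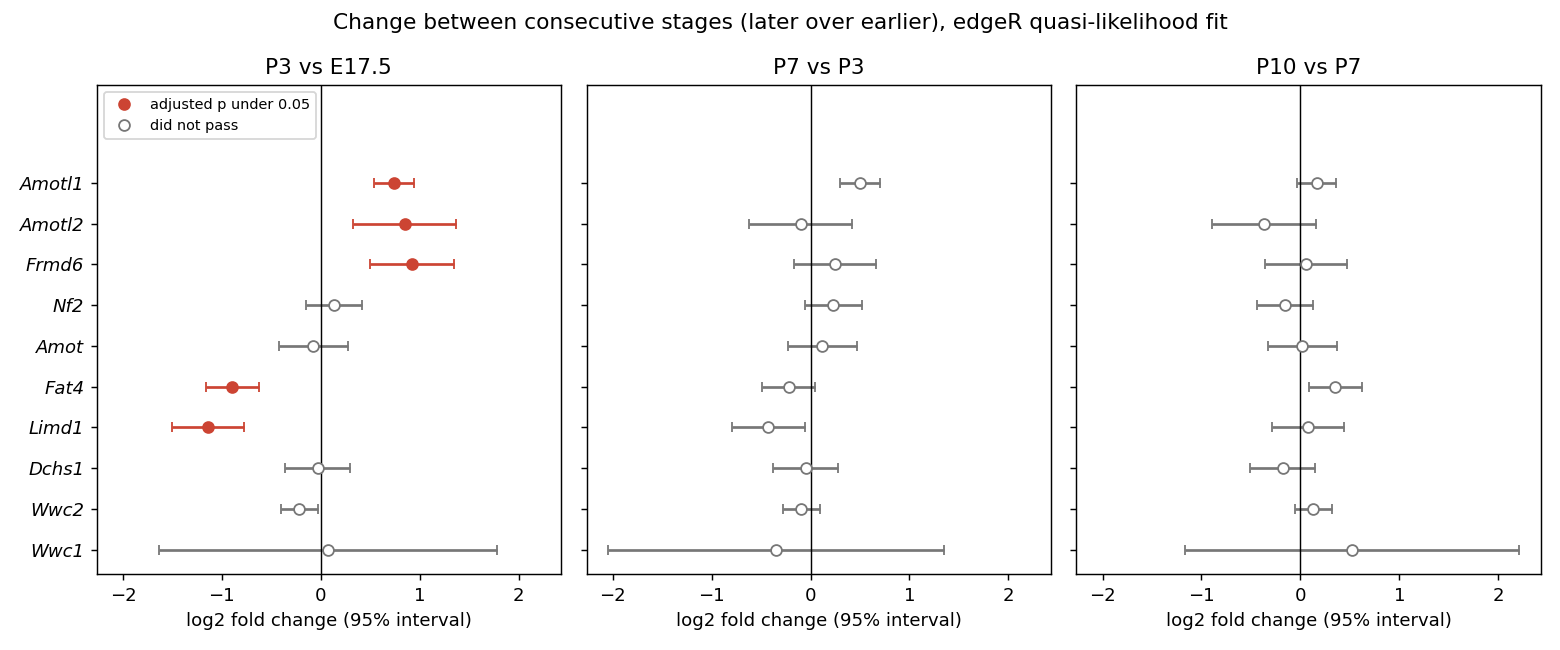
Log2 fold change of the later over the earlier stage for each gene in 3 consecutive comparisons, with 95% intervals from the fit; filled points passed at an adjusted p under 0.05. The 5 genes that passed are all in P3 vs E17.5, and the interval of Wwc1 is the widest in each panel.

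Some markers of other cells, and the cell cycle genes, also differed between P3 and E17.5, where 25.1% of all tested genes passed. That share was 25.4% in P7 vs E17.5 and 18.3% in P10 vs E17.5. Pericyte markers summed to between 88.9 and 89.6 CPM at P3, against 184 to 292 CPM at E17.5, and 4 of 8 fell. Erythroid markers summed to between 31.8 and 53.5 CPM at P3, against 117 to 179 CPM at E17.5, and 4 of 5 tested fell. Cell cycle genes summed to between 310.4 and 348 CPM at P3, against 55.4 to 106 CPM at E17.5, and all 6 rose. Immune markers summed to between 18.9 and 22.7 CPM at P3, against 10.4 to 12.5 CPM at E17.5, and 2 of 7 tested rose, with Ms4a1 at 0 in both groups and Cd52 at 0 at E17.5. Endothelial sums were 64.9 to 84.5 CPM at P3 and 58.7 to 79.2 CPM at E17.5, and 1 of 10 fell. Epithelial sums were 177 to 303 CPM at P3 and 133 to 188 CPM at E17.5, with 1 of 12 tested higher and 2 lower. Mesothelial sums were 0.809 to 0.910 CPM at P3 and 0.882 to 1.46 CPM at E17.5, with Upk3b, Upk1b and Wt1 at 0 at E17.5. In P7 vs E17.5, erythroid markers had 4 of 5 lower, pericyte markers 1 of 8 higher and 5 lower, epithelial markers 1 of 12 higher and 4 lower, immune markers 2 of 7 higher, endothelial markers 0 of 10 passing, and cell cycle genes 6 of 6 higher. In P10 vs E17.5, erythroid markers had 4 of 5 lower, pericyte markers 1 of 8 higher and 4 lower, epithelial markers 1 of 12 higher and 3 lower, immune markers 3 of 7 higher, endothelial markers 0 of 10 passing, and cell cycle genes 1 of 6 higher. The 1 mesothelial marker tested was lower in both. The part of these cells in the changes of the 10 genes was not tested, and in bulk RNA fewer cells of a type cannot be told apart from less RNA per cell.

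The stretches around the transcription start are shown for the 3 genes that rose together at P3, for Fat4, which fell, and for Wwc2, which held the most matches to the TEAD motif. TEAD factors are the DNA-binding partners of YAP and TAZ, and the motif searched was GGAATG with its reverse complement CATTCC, on both strands. Sequences are from RefSeq on GRCm38.p6, from 250 bases before to 50 bases after the start, written 5′ to 3′ in the direction of the gene, with matches in capitals.
Amotl1, chr9:14614951-14615250, minus strand: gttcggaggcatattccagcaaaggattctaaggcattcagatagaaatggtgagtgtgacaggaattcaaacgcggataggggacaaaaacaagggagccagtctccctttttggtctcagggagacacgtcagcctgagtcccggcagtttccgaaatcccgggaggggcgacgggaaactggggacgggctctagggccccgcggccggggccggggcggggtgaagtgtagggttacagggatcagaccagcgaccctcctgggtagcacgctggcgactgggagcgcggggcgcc
Amotl2, chr9:102717554-102717853, plus strand: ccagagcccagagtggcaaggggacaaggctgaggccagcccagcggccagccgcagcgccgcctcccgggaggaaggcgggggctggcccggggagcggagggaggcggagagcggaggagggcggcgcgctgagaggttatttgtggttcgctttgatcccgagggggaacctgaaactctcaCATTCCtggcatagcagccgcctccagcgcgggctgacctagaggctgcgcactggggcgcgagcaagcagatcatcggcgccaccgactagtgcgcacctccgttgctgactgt
Frmd6, chr12:70825264-70825563, plus strand: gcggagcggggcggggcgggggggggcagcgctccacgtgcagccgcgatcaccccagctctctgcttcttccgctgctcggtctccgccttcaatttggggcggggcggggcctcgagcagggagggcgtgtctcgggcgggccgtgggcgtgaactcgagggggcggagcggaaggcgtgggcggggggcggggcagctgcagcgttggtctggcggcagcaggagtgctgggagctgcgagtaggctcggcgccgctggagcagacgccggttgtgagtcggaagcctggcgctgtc
Fat4, chr3:38886690-38886989, plus strand: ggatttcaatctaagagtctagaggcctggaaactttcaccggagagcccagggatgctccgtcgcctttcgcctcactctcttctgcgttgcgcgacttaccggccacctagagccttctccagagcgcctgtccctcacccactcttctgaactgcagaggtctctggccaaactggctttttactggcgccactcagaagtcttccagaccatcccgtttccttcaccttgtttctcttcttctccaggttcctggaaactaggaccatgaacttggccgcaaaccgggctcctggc
Wwc2, chr8:47990495-47990794, minus strand: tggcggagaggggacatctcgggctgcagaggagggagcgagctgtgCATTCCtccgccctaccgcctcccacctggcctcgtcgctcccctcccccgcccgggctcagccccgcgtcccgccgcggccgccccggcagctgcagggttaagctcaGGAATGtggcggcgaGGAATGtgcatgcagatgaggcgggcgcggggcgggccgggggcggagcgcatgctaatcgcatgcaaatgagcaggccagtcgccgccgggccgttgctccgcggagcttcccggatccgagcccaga

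The RefSeq table held windows for 8 of the 10 genes, 9 windows in all since Nf2 had 2, and Dchs1 and Limd1 were not among them. The motif was present in 2 of these 9 windows, against 14.7% of the 32851 windows of all genes. Among the printed windows, the RefSeq starts of Amotl1, Amotl2 and Wwc2 lie inside the longer GENCODE genes. In Amotl2 it occurred once, as CATTCC beginning 65 bases before the start. Wwc2 had 3 matches, beginning 203, 94 and 79 bases before the start. Amotl1 and Frmd6, which rose with Amotl2, had 0 matches in these windows. A match of letters is a description and shows no binding.

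The angiomotins behaved differently from one another. Amotl1 (chromosome 9, 14541966 to 14645056, minus strand, GRCm38) had a higher mean at each later stage. Amotl2 had its highest mean at P3, and Amot lay between 7.62 and 11.2 CPM throughout. Amotl1 had 29.0, 32.8 and 35.8 CPM in the E17.5 libraries, 55.5, 57.0 and 50.9 CPM at P3, 78.8, 72.9 and 79.3 CPM at P7 and 86.1, 86.7 and 86.0 CPM at P10. No library of one stage overlapped any library of another, and the order of the stages was that of age. Of all tested genes, 38.9% had no overlap in P3 vs E17.5, 25.9% in P7 vs P3 and 30.1% in P10 vs P7. Amotl1 averaged 54.5 ± 3.16 CPM at P3 and 32.5 ± 3.36 CPM at E17.5 (SD, n = 3 each), or 0.74 on the log2 scale (SE 0.09, adjusted p = 0.000320). At P7 it averaged 77.0 ± 3.54 CPM, and P7 vs P3 gave 0.50 (SE 0.09, adjusted p = 0.0921), which did not pass with edgeR but did with DESeq2 (adjusted p = 3.68e-06) and when E17.5 replicate 1 was left out (adjusted p = 0.0333). P10 exceeded P3 by 0.66 on the log2 scale (SE 0.09, adjusted p = 0.00181) and E17.5 by 1.41 (SE 0.09, adjusted p = 5.37e-06), a 2.65-fold difference. P7 and P10, neighbours in the order, did not pass (0.16, 95% interval -0.03 to 0.36).

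Amotl2 (chromosome 9, 102716672 to 102733418, plus strand) was the most abundant of the 10 genes per length, above 97.2% of tested genes in mean level. It had 123, 99.9 and 155 CPM in the E17.5 libraries, 215, 197 and 269 CPM at P3, 293, 157 and 185 CPM at P7 and 183, 159.8 and 149 CPM at P10. All P3 libraries lay above all E17.5 libraries, and 38.9% of all tested genes had no overlap there in either direction. P7 replicate 1 stood far above the other P7 libraries. Amotl2 averaged 227 ± 37.5 CPM at P3 and 126 ± 27.8 CPM at E17.5 (log2 fold change 0.85, SE 0.24, adjusted p = 0.0248). It no longer passed when 1 of 3 libraries was left out, namely E17.5 replicate 1 (0.83, adjusted p = 0.0618), E17.5 replicate 2 (0.72, adjusted p = 0.0875) or P3 replicate 3 (0.73, adjusted p = 0.0708). For P7 vs E17.5 the log2 fold change was 0.75 (SE 0.24, adjusted p = 0.0407). It missed the threshold in 9 of 19 alternatives (no filter, the libraries of these stages alone, or any of 7 libraries left out), with 0.42 (adjusted p = 0.180) when P7 replicate 1 was left out. P10 averaged 164 ± 17.51 CPM, with a difference of 0.38 from E17.5 (95% interval -0.14 to 0.90, adjusted p = 0.305) and of -0.47 from P3 (-0.99 to 0.05, adjusted p = 0.201). No pair of postnatal stages passed.

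Amot (chromosome X, 145446425 to 145505181, minus strand), the founding member of the family, had 9.30, 8.16 and 8.75 CPM at E17.5, 9.06, 7.62 and 8.23 CPM at P3, 9.71, 7.76 and 9.56 CPM at P7 and 8.12, 11.2 and 8.12 CPM at P10. The 4 stages overlapped throughout, and the 95% interval of P3 vs E17.5 ran from -0.42 to 0.27 on the log2 scale (adjusted p = 0.775). Over the 4 stages together Amot had adjusted p = 0.868.

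The 3 angiomotin levels summed to 167 ± 29.9 CPM at E17.5, 289.6 ± 34.5 CPM at P3, 298 ± 75.0 CPM at P7 and 259 ± 17.3 CPM at P10 (SD, n = 3 each). Amotl2 made up 75.0% ± 3.56 of that sum at E17.5, 78.0% ± 3.49 of it at P3, 70.1% ± 5.83 of it at P7 and 63.1% ± 2.56 of it at P10. Amotl1 made up 19.7% ± 3.06, 19.1% ± 3.21, 26.8% ± 5.37 and 33.3% ± 2.18 from the earliest to the latest stage. The ratio of Amotl2 to Amotl1 lay between 3.05 and 4.34 in the E17.5 libraries, between 3.46 and 5.28 at P3, between 2.15 and 3.72 at P7 and between 1.73 and 2.13 at P10. Every P10 library had a lower ratio than every library of the other stages, given here as a description with no test.

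**Figure D4:**
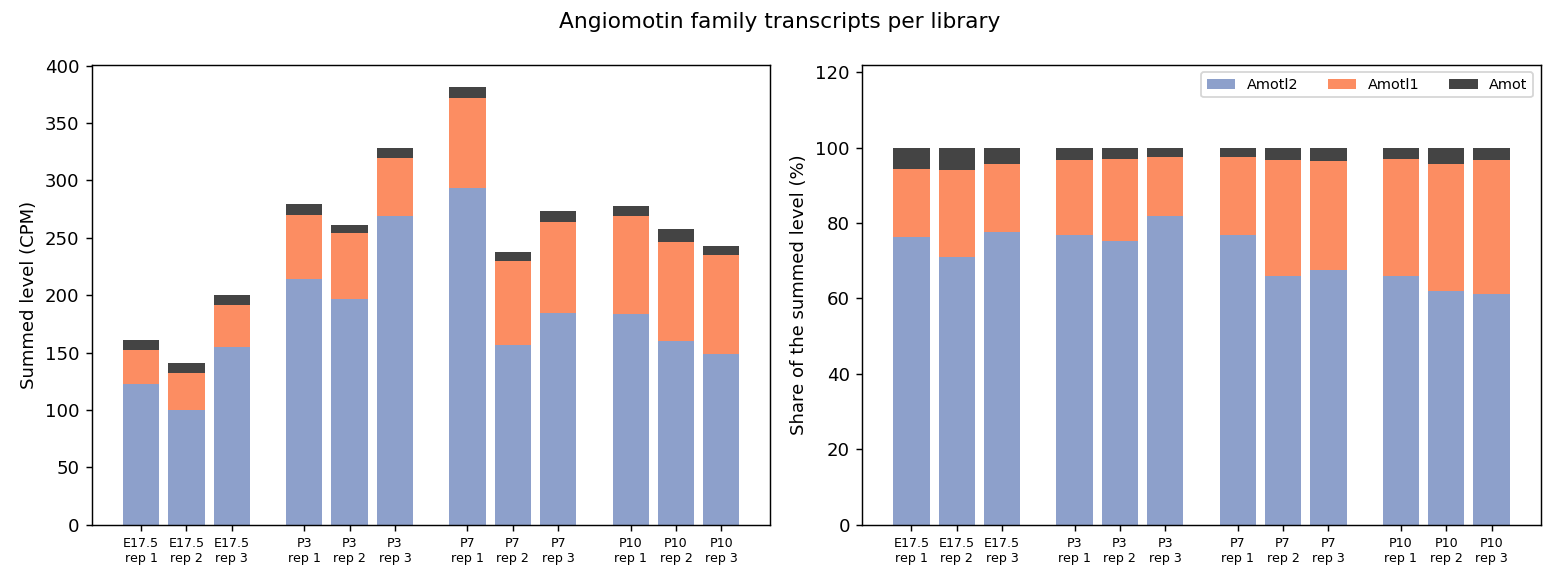
Summed level (left, CPM) and share of the sum (right, %) of the 3 angiomotin transcripts in every library, in order of stage. The sum is below 200 CPM in each E17.5 library and at or above 237.7 CPM in each later one, and the Amotl1 share is between 31.0% and 35.4% in the P10 libraries.

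Among the membrane scaffolds, Frmd6 rose and Nf2 did not pass. Frmd6 (chromosome 12, 70825514 to 70902234, plus strand), which encodes willin, had 12.2, 13.6 and 11.7 CPM at E17.5, 23.9, 24.8 and 22.6 CPM at P3, 32.5, 22.1 and 30.0 CPM at P7 and 38.5, 23.8 and 25.6 CPM at P10. Each of the 9 postnatal libraries exceeded each E17.5 library, and the postnatal stages overlapped one another. No overlap with E17.5 was found for 38.9% of all tested genes at P3, 42.9% at P7 and 33.9% at P10. Frmd6 averaged 23.8 ± 1.09 CPM at P3 and 12.5 ± 0.980 CPM at E17.5 (log2 fold change 0.93, SE 0.19, adjusted p = 0.00573). P10 vs E17.5 gave 1.23 (SE 0.19, adjusted p = 0.00143). Between P10 and P3 the difference was 0.30 (95% interval -0.11 to 0.72, adjusted p = 0.295).

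Nf2 (chromosome 11, 4765845 to 4849536, minus strand), the gene of the tumour suppressor merlin, had 31.0, 39.6 and 42.3 CPM at E17.5, 36.1, 45.1 and 42.6 CPM at P3, 52.3, 46.2 and 46.9 CPM at P7 and 45.8, 39.8 and 44.9 CPM at P10. The 3 P7 libraries were above every library of the other stages, and E17.5, P3 and P10 overlapped. Of all tested genes, 42.9% had no overlap in P7 vs E17.5, 25.9% in P7 vs P3 and 30.1% in P10 vs P7. Neither P7 vs P3 (adjusted p = 0.442) nor P10 vs P7 (adjusted p = 0.543) passed for Nf2. Nf2 averaged 48.5 ± 3.32 CPM at P7 and 37.6 ± 5.89 CPM at E17.5 (log2 fold change 0.36, SE 0.13, adjusted p = 0.0625), which missed the threshold. It passed with DESeq2 (adjusted p = 0.0309), without E17.5 replicate 3 (0.48, adjusted p = 0.0333) and with P3 replicate 1 left out (adjusted p = 0.0490). For P3 vs E17.5 the 95% interval was -0.15 to 0.42.

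Of the KIBRA pair, Wwc2 was the more abundant in every library. Wwc2 (chromosome 8, 47823959 to 47990924, minus strand) had 23.3, 23.8 and 23.0 CPM at E17.5, 20.1, 19.5 and 20.9 CPM at P3, 18.9, 18.1 and 19.7 CPM at P7 and 22.5, 20.2 and 19.4 CPM at P10. All 9 postnatal libraries lay below all 3 E17.5 libraries, by a small margin. Of all tested genes, 38.9% at P3, 42.9% at P7 and 33.9% at P10 had no overlap with E17.5. Wwc2 averaged 18.9 ± 0.792 CPM at P7 and 23.4 ± 0.402 CPM at E17.5, which is -0.31 on the log2 scale (SE 0.08, adjusted p = 0.0219). In 5 of 19 alternatives it did not pass. The adjusted p was 0.0649 with no filter, 0.0586 in a fit of both stages alone, 0.0794 with E17.5 replicate 2 left out, 0.0518 with P7 replicate 1 left out and 0.0751 with P7 replicate 2 left out. P3 vs E17.5 gave -0.21 (SE 0.08, adjusted p = 0.0874). Genes on the other strand inside Wwc2 reached at most 4.86 CPM, and whether counting used strand was not given in the sources used here.

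Wwc1 (chromosome 11, 35838400 to 35980527, minus strand), which encodes KIBRA itself, was the lowest of the 10 genes, with between 2 and 38 estimated counts per library. It had 0.679, 0.972 and 1.09 CPM at E17.5, 1.09, 0.797 and 1.01 CPM at P3, 0.996, 0.900 and 0.368 CPM at P7 and 0.119, 2.46 and 0.710 CPM at P10. Its share of the summed Wwc1 and Wwc2 level was 4.96% ± 5.30 at P10 and 3.76% ± 0.867 at E17.5 (SD, n = 3 each). The P10 libraries span the whole range of the gene, and P3 vs E17.5 had a 95% interval of -1.63 to 1.78 on the log2 scale.

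Of the cadherin pair, Fat4 fell after E17.5 and Dchs1 did not pass in any comparison. Fat4 (chromosome 3, 38886940 to 39011985, plus strand) had 39.4, 31.5 and 29.4 CPM at E17.5, 18.1, 16.6 and 19.4 CPM at P3, 13.9, 16.6 and 15.8 CPM at P7 and 19.4, 20.3 and 19.5 CPM at P10. Every postnatal library was below every E17.5 library. The share of all tested genes with no overlap with E17.5 was 38.9% at P3, 42.9% at P7 and 33.9% at P10. Fat4 averaged 18.0 ± 1.40 CPM at P3 and 33.4 ± 5.25 CPM at E17.5 (log2 fold change -0.89, SE 0.12, adjusted p = 0.000607), and P7 vs E17.5 gave -1.11 (SE 0.12, adjusted p = 0.000150). P10 vs E17.5 gave -0.76 (SE 0.12, adjusted p = 0.00159). The P10 libraries were above the P7 libraries with no overlap, as for 30.1% of all tested genes, at 19.7 ± 0.493 CPM at P10 and 15.4 ± 1.37 CPM at P7, but the difference of 0.35 did not pass (SE 0.12, adjusted p = 0.135). Fat4 overlaps C230034O21Rik on the other strand, which reached at most 5.84 CPM.

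Dchs1 (chromosome 7, 105752990 to 105787654, minus strand), which encodes the ligand of FAT4, had 33.6, 44.6 and 40.1 CPM at E17.5, 40.1, 37.4 and 38.5 CPM at P3, 40.6, 33.9 and 37.6 CPM at P7 and 40.4, 27.1 and 31.5 CPM at P10. The stages overlapped, and the 95% interval of P3 vs E17.5 was -0.36 to 0.30 on the log2 scale (adjusted p = 0.917). For P10 vs E17.5 it was -0.59 to 0.07 (adjusted p = 0.271). The ratio of Dchs1 to Fat4 was 1.21 ± 0.311 in E17.5 libraries, 2.16 ± 0.146 in P3 libraries, 2.44 ± 0.441 in P7 libraries and 1.68 ± 0.376 in P10 libraries, a description with no test. It lay between 1.99 and 2.26 in the P3 libraries, against 0.853 to 1.42 in the E17.5 libraries. The P7 libraries had 2.04 to 2.91, and the P10 libraries, at 1.34 to 2.08, overlapped all 3 other stages.

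Limd1 (chromosome 9, 123478706 to 123521552, plus strand) had the largest fall of the 10 genes in P3 vs E17.5, P7 vs E17.5 and P10 vs E17.5. It had 46.7, 31.2 and 29.4 CPM at E17.5, 17.1, 16.8 and 14.8 CPM at P3, 11.001, 11.8 and 13.6 CPM at P7 and 12.6, 12.6 and 12.99 CPM at P10. Every postnatal library was below every E17.5 library, of which replicate 1 was highest. Among all tested genes, 38.9% at P3, 42.9% at P7 and 33.9% at P10 had no overlap with E17.5. Limd1 averaged 16.3 ± 1.24 CPM at P3 and 35.8 ± 9.50 CPM at E17.5 (log2 fold change -1.14, SE 0.17, adjusted p = 0.000845). At P10 it averaged 12.7 ± 0.218 CPM, a difference of -1.49 from E17.5 on the log2 scale (SE 0.17, adjusted p = 0.000171). Without E17.5 replicate 1 the P3 vs E17.5 value was -0.90 and still passed. P7 lay below P3 with no overlap, as for 25.9% of all tested genes, but the difference of -0.43 did not pass (SE 0.17, adjusted p = 0.289). Its relative Ajuba, from the same family of LATS-binding LIM proteins, averaged 10.6 ± 0.0862 CPM at P3 and 5.62 ± 1.05 CPM at E17.5, a difference of 0.91 (SE 0.20, adjusted p = 0.00826).

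Over the 12 libraries Amotl1 and Frmd6 varied together and against Fat4 and Limd1. Pearson's r of log2(CPM + 1) was 0.90 between Amotl1 and Frmd6, 0.93 between Fat4 and Limd1, and -0.95 between Amotl1 and Limd1. Amotl1 and Fat4 had r = -0.83. After the stage means were removed, r was 0.23 for Amotl1 with Frmd6, 0.70 for Fat4 with Limd1, -0.53 for Amotl1 with Limd1 and -0.90 for Amotl1 with Fat4. The other pairs beyond 0.8 in either direction within stages were Frmd6 with Dchs1 (0.82, against -0.06 over all libraries) and Nf2 with Fat4 (-0.81, against -0.76). These values describe 12 libraries that share 4 stages and carry no test. P10 replicate 1 was the highest P10 library for both Frmd6 (38.5 CPM) and Dchs1 (40.4 CPM). Replicate 1 of E17.5 was the highest E17.5 library for Fat4 (39.4 CPM) and Limd1 (46.7 CPM). It was the lowest E17.5 library for Amotl1 (29.0 CPM) and Nf2 (31.0 CPM). How far single libraries set the within-stage values was not tested.

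The genes with the most similar course were searched among 6761 tested genes with a mean of at least 10 CPM, by Pearson's r over the 12 libraries. For Amotl1 they included the growth factor gene Tgfb3 (r = 0.995) and Dpysl2 (r = 0.986). For Frmd6 they were Gja1, the gene of connexin 43 (r = 0.976), Ptk2, the focal adhesion kinase gene (r = 0.970), and Pde1a (r = 0.967). Fat4 was nearest to the collagen gene Col6a2 (r = 0.966), Man2a2 (r = 0.965) and Lrp5, a Wnt co-receptor gene (r = 0.963). Limd1 was nearest to H6pd (r = 0.990), the transglutaminase gene Tgm2 (r = 0.983) and Tmem176a (r = 0.974).

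Lists of other genes of the pathway are given by their counts, beside the 25.1% of all genes that passed in P3 vs E17.5. Of 15 tested core genes (kinases, coactivators, TEAD and VGLL factors), 2 rose and 1 fell in P3 vs E17.5, with a median log2 fold change of -0.08. Tead1 averaged 105 ± 4.04 CPM at P3 and 77.1 ± 3.78 CPM at E17.5 (0.45, SE 0.10, adjusted p = 0.00783), Tead2 rose by 0.45 (SE 0.13, adjusted p = 0.0259) and the kinase gene Lats1 fell by 0.33 (SE 0.08, adjusted p = 0.0140). In P10 vs E17.5, where 18.3% of all genes passed, 0 of the 15 passed. Of 33 other tested upstream genes, 4 rose and 10 fell in P3 vs E17.5, with a median of -0.28, and 5 rose and 6 fell in P10 vs E17.5. Besides Ajuba, Map4k4, a kinase gene that acts beside MST1 and MST2, rose by 0.51 (SE 0.11, adjusted p = 0.00685), and the polarity gene Dlg1 fell by 0.52 (SE 0.10, adjusted p = 0.00311).

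Of 10 tested genes of STRIPAK, the phosphatase complex that opposes the MST kinases, 0 rose and 1 fell in P3 vs E17.5 (Ppp2ca, -0.48, SE 0.12, adjusted p = 0.0141). Of 8 genes that act on the stability of angiomotin proteins, 0 rose and 2 fell. Tnks2, a tankyrase gene, averaged 70.0 ± 3.35 CPM at P3 and 103.6 ± 3.85 CPM at E17.5 (-0.57, SE 0.09, adjusted p = 0.00132). Itch, a ubiquitin ligase gene, averaged 28.0 ± 1.38 CPM at P3 and 38.0 ± 2.78 CPM at E17.5 (-0.44, SE 0.09, adjusted p = 0.00485), and rose in P10 vs P7 to 37.8 ± 2.37 CPM at P10, against 28.2 ± 1.75 CPM at P7 (0.42, SE 0.09, adjusted p = 0.0331).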

How the data were processed

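Bulk RNA was sequenced from Acta2-dsRed and Pdgfra-GFP double-positive lung cells, with a stranded low-input total RNA kit per the labels' protocols. The genome build was GRCm38 per the submitters' processing notes; the aligner, quantifier and annotation were not given in the sources used here. As 1 table, the authors deposited estimated counts, scaled per its name and whole numbers throughout; the low values fall with transcript length, so they are not numbers of reads, and a count model on them takes their spread, not read sampling. Positions are those of GENCODE M21 on GRCm38, matched by symbol for all 10 genes.

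Stages came from the sample titles, and 0 value columns lacked a sample. After edgeR's filter on low counts by stage, 16827 genes entered 1 quasi-likelihood fit of all 12 libraries with trimmed-mean library sizes and robust fitting (edgeR 4.0.16, limma 3.58.1, R 4.3.3), with Benjamini-Hochberg adjustment over all tested genes at 0.05. Standard errors are the fold change over the root of the F statistic, and 95% intervals use the fit's degrees of freedom. The procedure was tested on simulated data. Alternatives were other size factors, no filter, DESeq2 1.42.0, limma-voom, a fit of the 2 stages alone, a replicate block, omission of 7SK and 7SL genes, and each library left out. The genes and lists were chosen with earlier results of these data known. Genes named besides the 10 are, per list, up to 4 with the smallest adjusted p among those that passed in P3 vs E17.5 or P10 vs P7, and the 3 nearest in course to each gene that differed over the 4 stages, without predicted models. A few genes that these rules select are not reported here.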

Additional observations from a re-analysis of the deposited data

How the results depend on the processing

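The number of the 10 genes called kept within 1.5 times its main value in 129 of 132 combinations of comparison and alternative. That bound still let counts move. P7 vs E17.5, with 6 called, ran from 4 (with no filter, 3611 of all genes) to 7 (with DESeq2, 5241 of all genes). Over the 4 stages, with 4 called, the highest count was 6 (with DESeq2, 7321 of all genes). In P7 vs P3, with 0 called, DESeq2 called 1 and the count was 0 to 1 with 1 library left out; in P10 vs P3, with 1 called, it was 1 to 2. The 1 added was Amotl1 in P7 vs P3 and Limd1 in P10 vs P3 (adjusted p = 0.0431, without E17.5 replicate 1). Of 1140 single fold changes under an alternative, 1087 kept their direction and side of the threshold, 17 no longer passed, 6 newly passed and 30 changed sign, all 30 of values that did not pass. With limma-voom the log2 fold change of Amot in P10 vs P7 was -0.0054, and that of Wwc1 was -0.21 in P10 vs P7, -0.60 in P10 vs E17.5 and -0.65 in P10 vs P3; with the replicate block Wwc1 had -0.023 and -0.14 in the last 2. With 1 library left out, Wwc1 ranged from -0.10 to 0.25 in P3 vs E17.5, -0.83 to 1.05 in P10 vs P7, -0.55 to 0.043 in P7 vs E17.5, -1.11 to 0.78 in P10 vs E17.5 and -1.18 to 0.70 in P10 vs P3. Amot ranged from -0.15 to 0.11 in P10 vs P7, -0.032 to 0.13 in P7 vs E17.5, -0.11 to 0.14 in P10 vs E17.5 and -0.031 to 0.22 in P10 vs P3. Dchs1 ranged from -0.13 to 0.079 in P3 vs E17.5, -0.13 to 0.0042 in P7 vs P3 and -0.18 to 0.031 in P7 vs E17.5. Amotl2 ranged from -0.43 to 0.065 in P7 vs P3, Frmd6 from -0.19 to 0.19 in P10 vs P7, Nf2 from -0.034 to 0.14 in P10 vs P3 and Wwc2 from -0.025 to 0.086 in P10 vs P3. The cause of these shifts was not tested.

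Same-numbered libraries of different stages did not deviate together (r between -0.27 and 0.19 over 18 pairs, and 4 of 12 libraries correlated best with their own number), so these numbers were not taken to pair the libraries. The numbers are those of the sample titles; the table's column names number some libraries otherwise, and a pairing by those was not checked. With the replicate block 5, 0, 0, 6, 4 and 1 of the 10 genes passed in P3 vs E17.5, P7 vs P3, P10 vs P7, P7 vs E17.5, P10 vs E17.5 and P10 vs P3, as without it, and 5 rather than 4 over the 4 stages. Over all genes the block fit called 310 in P10 vs P7, against 613 without it, and 0 in P7 vs P3, against 1. DESeq2 called 1841 in P10 vs P7 and 730 in P7 vs P3, and without E17.5 replicate 1 edgeR called 77 in P7 vs P3. With 1 library left out P10 vs P7 ranged from 23 to 797 genes. Wwc1 had 2 to 38 estimated counts per library, and its P10 libraries spread most (2, 38 and 14).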
